A study of Drosophila melanogaster with 9 samples.

Results

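The genes described here encode the subunits of the proteasome. They were taken by symbol as every row of the raw count table that starts with *Prosalpha* or *Prosbeta*, or with *Pros*, *Rpn* or *Rpt* followed by a digit, which gave 47 of 16492 gene symbols. By their names in the annotation, 32 of them are the ubiquitous subunits and 15 are paralogs, marked R or T in the symbol. The ubiquitous genes comprise 7 alpha and 7 beta subunits of the 20S core, and 10 genes of the base and 8 of the lid of the 19S cap. *Rpn10* and *Rpn13* were counted with the base.

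The proteasome degrades proteins that carry ubiquitin chains. The 20S core is a barrel of stacked rings, in which alpha subunits form the outer rings and gate the entry, and beta subunits form the inner rings and hold the proteolytic sites. The 19S cap recognizes the substrate, removes its ubiquitin and unfolds it: the base contains the ATPases (*Rpt* genes) and the ubiquitin receptors, and the lid contains the deubiquitinase *Rpn11*. In *Drosophila*, several subunits have a paralog that is used in the male germline.

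Cells of the *dpp* domain, marked with GFP, were sorted from wing discs of larvae in the wandering stage of the last instar, and their RNA was sequenced. All animals carried *dpp-gal4* and *UAS-gfp* on one chromosome, over a wild-type chromosome in the gfp control, over *UAS-hop* in STAT supercompetitors (hop, the Janus kinase of the JAK/STAT pathway) and over *UAS-Myc* in Myc supercompetitors, with the labels giving w/+ in all groups. Each genotype had 3 libraries, each from at least 60 discs, and 9 libraries were sequenced in all. Since the driver acts in a stripe of anterior cells, the values describe a pool of that stripe and not the disc. The sources call the libraries triplicates and do not say whether they came from separate crosses, so that p-values measure the spread between these libraries, which may be technical.

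The libraries held between 5110634 and 6104490 counts, of which rRNA genes took 20.8 to 27.2% and mitochondrial genes 3.09 to 5.19%. The proteasome genes together took 11380 to 14962 counts, or 0.207 to 0.256% of a library. On the first principal component, scaled so that the mean of gfp is 0 and that of hop is 1, gfp 1 lay at 0.23 and Myc 1 at 0.76, away from the other libraries of their groups. The targeted gene *hop* was at 62.6, 80.0 and 72.4 normalised read counts (CPM, scaled to the library size) in gfp and at 1360, 1145 and 1432 CPM in hop. *Myc*, listed as *dm*, was at 259, 237 and 233 CPM in gfp and at 774, 538 and 602 CPM in Myc, so that both matched the labels. The 6 wing disc markers were *dpp*, *ptc* and *ci*, of the anterior compartment, and *ap*, *nub* and *vg*, which are not confined to it. All were detected, and they summed to 2459 to 2709 CPM in gfp, 2691 to 3343 CPM in hop and 2450 to 2647 CPM in Myc. Of these, *ci* was called higher in hop than in gfp (log2 fold change 0.43, adjusted p = 0.0337) and than in Myc (0.43, adjusted p = 0.0338), and *nub* was called higher in hop than in Myc (0.51, adjusted p = 0.0254). Against gfp, every hop library was also higher in *ap* (0.38, adjusted p = 0.0683) and lower in *dpp* (-0.27, adjusted p = 0.12) and *vg* (-0.22, adjusted p = 0.22). The part of this in the values of the proteasome genes was not tested.

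Of the 47 proteasome genes, 41 passed the filter on low counts and were tested, 31 ubiquitous genes and 10 paralogs. The 6 that did not pass were *Prosalpha1*, *Prosalpha3T*, *Prosbeta2R1*, *Prosbeta4R1*, *Prosbeta4R2* and *Rpn12R*. *Prosalpha1* (chromosome 2R, 7827303 to 7828678, BDGP6) encodes an alpha ring subunit that every proteasome needs. It had 0 counts in every library, for which counting error alone allows up to 0.633 CPM in the library with the smallest TMM-scaled size. A second gene for this subunit, *Prosalpha1R* (listed as *CG30382*), lies 1734 bases away at 7830413 to 7831771 and also had 0 counts. Reads that fit both copies equally may be lost in counting. Whether this was so was not tested. *Prosalpha1* adds 0 to the sums below and is not among the genes with a fold change or a level per length.

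Summed over all members, proteasome transcripts were at 1.02 times the gfp level in hop and at 1.07 times in Myc. The 47 genes summed to 2221, 2353 and 2299 CPM in gfp, to 2116, 2417 and 2472 CPM in hop, and to 2305, 2757 and 2269 CPM in Myc. The means were 2291 ± 66.2 CPM in gfp, 2335 ± 192 CPM in hop and 2443 ± 272 CPM in Myc (SD, n = 3, here and below). The ranges of the 3 groups overlapped. In a pool of sorted cells, fewer cells of a type and less RNA per cell cannot be told apart.

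Below the total, the classes of ubiquitous genes had unlike medians in hop. The median log2 fold change was -0.41 for the beta subunits and 0.12 for the base. It was -0.040 for both the alpha subunits of the core and the lid of the cap. Of the 41 genes tested, 1 was called lower (adjusted p under 0.05) and 0 higher in hop than in gfp, against 3.37% of all 12741 genes called lower and 3.16% called higher. At an unadjusted p under 0.05, 4 genes were higher and 5 were lower, beside 11.6% and 13% of all genes. DESeq2 called 2 lower and 0 higher, and limma-voom called 1 lower and 0 higher. The gene called was *Prosbeta5*. In 6 genes every hop library lay above every gfp library, and in 5 every one lay below. The shares of all genes were 14.8% and 16.5%, so these counts were near the background.

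**Figure D1:**
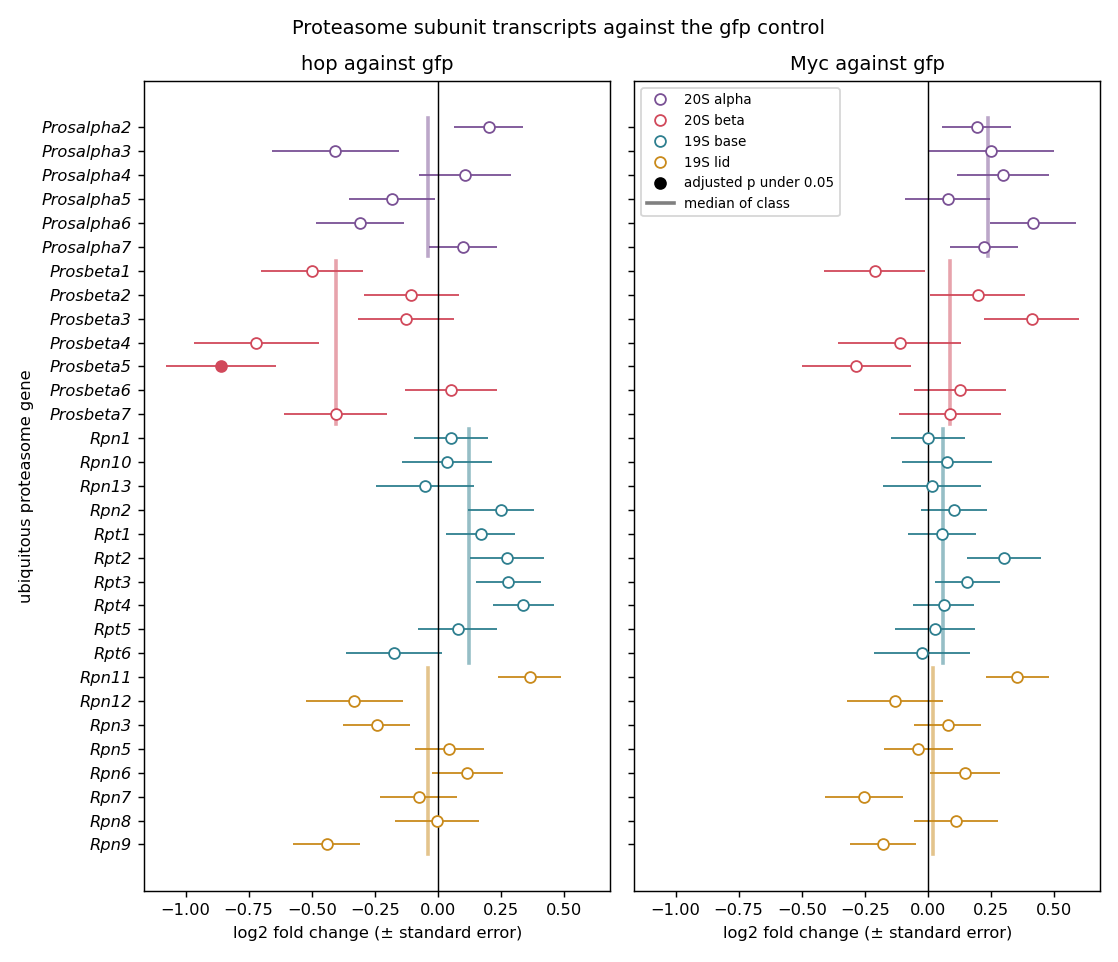
Log2 fold change of each of the 31 ubiquitous proteasome genes that were tested, against the gfp control, in hop (left) and Myc (right), with the standard error as a bar and the median of each class as a vertical line. In hop the median of the beta subunits was at -0.41 and that of the base at 0.12, and *Prosbeta5* (filled point) was the gene called. In Myc the medians of the 4 classes lay between 0.020 and 0.24 and no gene was called.

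Among the 4 classes of ubiquitous genes, the beta subunits of the core had the lowest median fold change in hop. Of their 7 ubiquitous genes, 6 had a negative log2 fold change, and the median was -0.41, beside -0.016 over all genes tested. The summed level of the beta subunits was 257, 283 and 272 CPM in gfp and 182, 233 and 222 CPM in hop, so that the groups did not overlap. In Myc the sum was 225, 329 and 270 CPM, a range that held all gfp values.

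*Prosbeta5* (chromosome 2R, 10819978 to 10821178) carries the chymotrypsin-like site, which cuts after large hydrophobic residues. Its level was 29.1, 36.6 and 38.4 CPM in gfp, 19.5, 16.6 and 21.2 CPM in hop, and 27.5, 36.3 and 22.0 CPM in Myc. Every hop library lay below every gfp and every Myc library, while gfp and Myc overlapped. The log2 fold change against gfp was -0.86 in hop (SE 0.219, 95% interval -1.32 to -0.40, adjusted p = 0.0306, edgeR quasi-likelihood test) and -0.28 in Myc (SE 0.215, 95% interval -0.74 to 0.17, adjusted p = 0.633). The difference between hop and Myc, -0.58 (SE 0.220), did not pass the test (adjusted p = 0.122). The hop call did not hold when any of 5 libraries was left out. Leaving out gfp 2 or gfp 3 gave an adjusted p of 0.125 or 0.142, and leaving out hop 1, hop 2 or hop 3 gave 0.0616, 0.102 or 0.0896, with log2 fold changes from -0.91 to -0.73. These fits called 73 to 405 of all genes higher and 67 to 288 lower, against 402 and 429 with all libraries.

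*Prosbeta5* shares 81 exon bases (7.11% of its exons) with *Lsm10* on the opposite strand, and the strand setting of the counting is not given in the sources used here. *Lsm10*, a component of the snRNP that processes histone transcripts, was at 4.04 ± 0.836 CPM in gfp and 3.99 ± 0.543 CPM in hop (log2 fold change -0.010, SE 0.398).

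*Prosbeta1* (chromosome 2R, 16013805 to 16014787) carries the caspase-like site. Its level was 58.2, 66.1 and 59.8 CPM in gfp, 35.9, 51.9 and 42.2 CPM in hop, and 41.8, 71.9 and 45.6 CPM in Myc. The hop libraries all lay below the gfp libraries, and the Myc libraries spanned both. Its log2 fold change in hop was -0.50 (SE 0.202, 95% interval -0.93 to -0.073, adjusted p = 0.136), which did not pass the test.

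*Prosbeta2* (chromosome 3L, 14999951 to 15001319) carries the trypsin-like site. Its level was 39.7, 43.2 and 37.8 CPM in gfp, 32.4, 35.0 and 44.9 CPM in hop, and 37.7, 56.5 and 44.3 CPM in Myc. The groups overlapped, and the log2 fold change in hop was -0.11 (SE 0.189, 95% interval -0.50 to 0.29). Without hop 1 the value was 0.0205. The genes of the 3 catalytic sites thus had log2 fold changes of -0.86, -0.50 and -0.11 in hop, and the differences between these genes were not tested.

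Of the beta subunits without a catalytic site, *Prosbeta4* was at 24.5, 27.6 and 20.9 CPM in gfp and at 11.9, 15.7 and 16.6 CPM in hop. The groups did not overlap, and the log2 fold change was -0.72 (SE 0.248, adjusted p = 0.0873). This passed the test when Myc 1 was left out (adjusted p = 0.0367), although that library is in neither group. *Prosbeta7* had a log2 fold change of -0.41 (SE 0.204) and *Prosbeta3* one of -0.13 (SE 0.190). *Prosbeta6*, at 37.1, 35.5 and 41.2 CPM in gfp and 36.2, 45.2 and 36.6 CPM in hop, had the one positive value, 0.053 (SE 0.183).

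**Figure D2:**
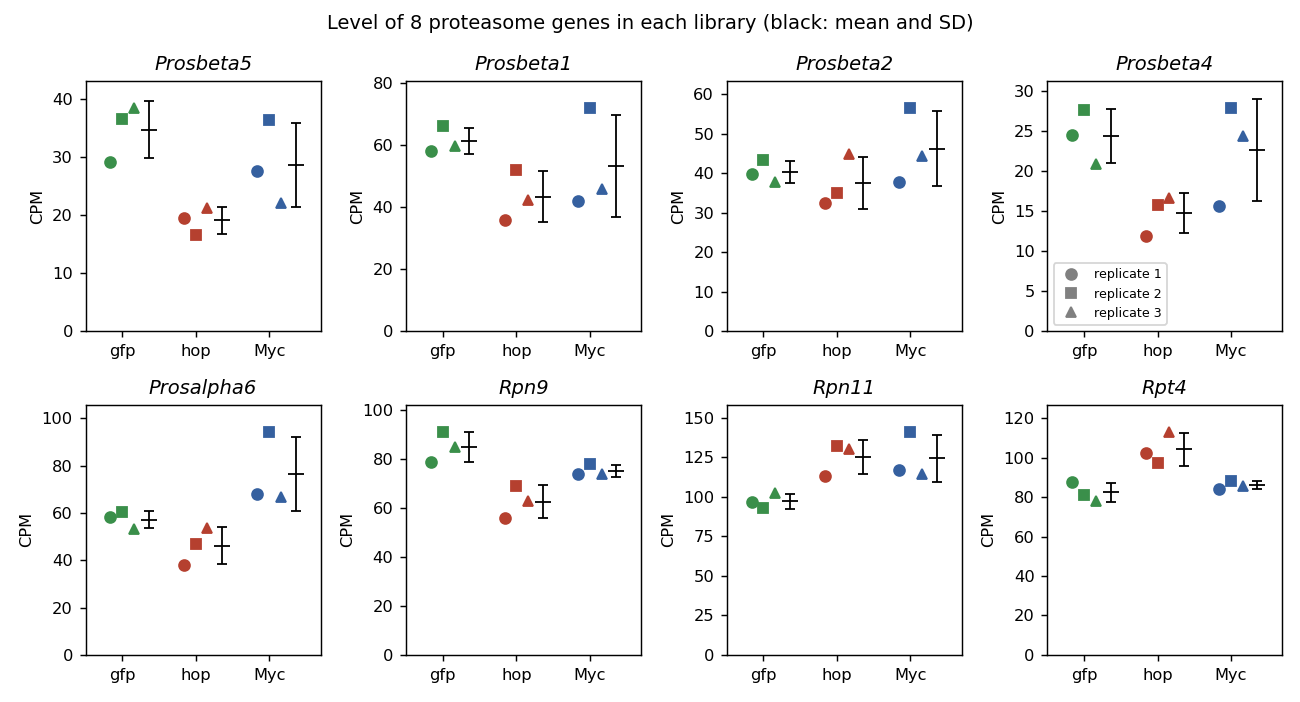
Level in CPM of 8 proteasome genes in each library, with circles, squares and triangles for replicates 1, 2 and 3 and the mean and SD in black. *Prosbeta5*, *Prosbeta1*, *Prosbeta4* and *Rpn9* were lower in all 3 hop libraries than in all gfp libraries, *Rpn11* and *Rpt4* were higher, and *Prosalpha6* was lower in all hop libraries than in all Myc libraries.

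The alpha subunits, which form the gated outer rings, varied in both directions in hop. Of the 6 tested, 3 had positive and 3 negative log2 fold changes, with a median of -0.040 and a range from -0.41 (*Prosalpha3*, SE 0.252) to 0.20 (*Prosalpha2*, SE 0.137). *Prosalpha2* was at 123, 138 and 139 CPM in gfp and at 140, 162 and 157 CPM in hop, where every hop library was above every gfp library. The adjusted p was 0.386. In Myc all 6 had positive values, with a median of 0.24, beside -0.037 over all genes. Over 869 other genes of 800 to 1300 exon bases and at least 10 CPM in the mean, the median in Myc was 0.11.

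*Prosalpha6* (chromosome 2L, 10221351 to 10222546) was the one member called between the supercompetitors. Its level was 58.4, 60.2 and 53.2 CPM in gfp, 37.9, 46.97 and 53.6 CPM in hop, and 68.3, 94.5 and 66.7 CPM in Myc. Every hop library lay below every Myc library, and every Myc library lay above every gfp library, while hop and gfp overlapped. The log2 fold change of hop against Myc was -0.72 (SE 0.173, 95% interval -1.09 to -0.36, adjusted p = 0.0218), and neither group differed from gfp past the threshold (-0.31, SE 0.174, adjusted p = 0.285 in hop and 0.42, SE 0.172, adjusted p = 0.27 in Myc). The call did not hold without hop 1 (adjusted p = 0.091), hop 2 (0.0579) or Myc 2 (0.125), where the log2 fold change was -0.60, -0.72 and -0.53, nor in a fit of the 6 libraries of both groups alone (-0.72, adjusted p = 0.0646).

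In the whole comparison of hop against Myc, 1 of 41 genes was called lower and 0 higher, against 3.19% and 3.35% of all genes. At an unadjusted p under 0.05, 7 genes were lower and 1 was higher, beside 13% and 11.4% of all genes. DESeq2 and limma-voom each called 1 lower and 0 higher. Every hop library was below every Myc library in 6 genes (13.1% of all genes) and above in 1 gene (11.4%). All 7 ubiquitous beta subunits had negative values, with a median of -0.49, beside -0.019 over all genes. Without Myc 1 the number of genes called rose to 5, all lower in hop: *Prosalpha6* at -0.79, *Prosalpha3* and *Prosbeta4* at -0.81, *Prosbeta3* at -0.63 and *Prosbeta7* at -0.60. Over all genes the same fit called 1391 higher and 1128 lower, against 427 and 407 with all libraries. Without hop 1, hop 2 or Myc 2 the number of proteasome genes called was 0. In that order, these fits called 186, 318 and 169 of all genes higher and 155, 206 and 123 lower.

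The base of the cap had mostly positive values in hop, opposite in sign to those of the beta subunits. Of its 10 ubiquitous genes, 8 had a positive log2 fold change, with a median of 0.12 and a range from -0.17 to 0.34, and none passed the test. The sum of the base genes was 810, 844 and 786 CPM in gfp and 839, 892 and 1017 CPM in hop, ranges that overlapped. The ATPase *Rpt4* (chromosome X, 6289470 to 6291245) had the largest value. It was at 87.8, 81.2 and 78.2 CPM in gfp, 102, 97.1 and 113 CPM in hop, and 84.2, 88.1 and 85.7 CPM in Myc. All hop libraries were above all others, and the log2 fold change against gfp was 0.34 (SE 0.121, adjusted p = 0.0988).

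*Rpt3* and *Rpt1*, ATPases of the same ring, also had every hop library above every gfp library, with log2 fold changes of 0.28 (SE 0.128, adjusted p = 0.189) and 0.17 (SE 0.135, adjusted p = 0.468). *Rpt6* was the ATPase with a negative value, -0.17 (SE 0.190). It shares 182 exon bases (13.0%) with *CG1801* on the opposite strand, a gene at 11.2 ± 2.21 CPM in gfp and 6.12 ± 1.20 CPM in hop. The ubiquitin receptors *Rpn1*, *Rpn10* and *Rpn13* had values of 0.051 (SE 0.147), 0.035 (SE 0.179) and -0.052 (SE 0.194), each less than its standard error.

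The lid held values in both directions. *Rpn11* (chromosome 2L, 5058404 to 5059790), the deubiquitinase that releases ubiquitin chains from the substrate, was at 96.8, 92.7 and 102 CPM in gfp, 113, 132 and 130 CPM in hop, and 117, 141 and 114.6 CPM in Myc. The libraries of both supercompetitors lay above all gfp libraries. The log2 fold changes were 0.36 in hop (SE 0.125, adjusted p = 0.0864) and 0.35 in Myc (SE 0.125, adjusted p = 0.181), against the same control libraries. The hop value passed the test when Myc 1 was left out (0.40, adjusted p = 0.0411).

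*Rpn9* (chromosome 3R, 23731375 to 23733462), a scaffold subunit of the lid, was at 79.0, 91.3 and 85.1 CPM in gfp, 56.0, 69.0 and 63.1 CPM in hop, and 73.8, 78.0 and 74.0 CPM in Myc. The hop libraries lay below all others, and the Myc libraries lay between the groups. The log2 fold change in hop was -0.44 (SE 0.133, 95% interval -0.72 to -0.16, adjusted p = 0.056). It passed the threshold with DESeq2 (adjusted p = 0.0479) and with upper quartile normalization (0.0306). Some exon bases of *Rpn9* are shared with *CG10365* on the opposite strand, whose log2 fold change was 0.49 (SE 0.274), opposite in sign to that of *Rpn9*.

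Of the other lid genes, *Rpn3* was at 97.9, 98.5 and 93.6 CPM in gfp and 78.5, 84.2 and 82.2 CPM in hop, without overlap (log2 fold change -0.24, SE 0.134, adjusted p = 0.275). *Rpn12* had -0.33 (SE 0.192). *Rpn5*, *Rpn6*, *Rpn7* and *Rpn8* had values between -0.077 and 0.12.

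Taken over single libraries, the mean log2 CPM of the 13 core genes minus that of the 18 cap genes was -0.81, -0.76 and -0.83 in gfp. It was -1.20, -1.0 and -1.08 in hop, and -0.88, -0.65 and -0.67 in Myc. The hop libraries were below all others, with group means of -0.80 ± 0.0318 in gfp, -1.09 ± 0.0988 in hop and -0.73 ± 0.127 in Myc. Since this value was built from the members after their fold changes had been seen, it was given no test.

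**Figure D3:**
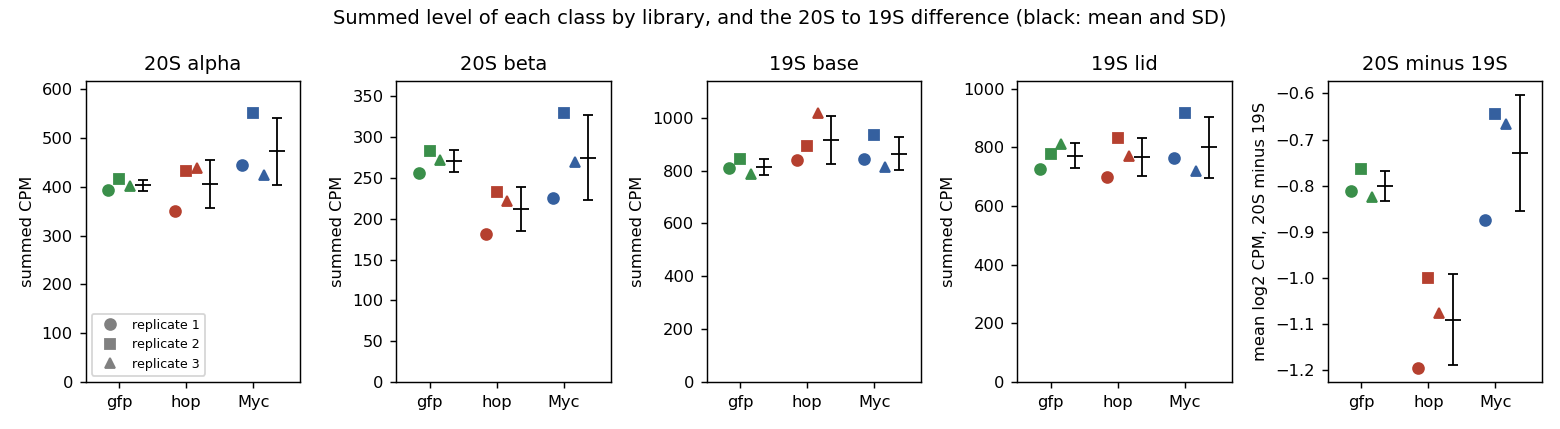
Summed level in CPM of each class of proteasome genes by library, ubiquitous genes only, and the mean log2 CPM of the 13 ubiquitous 20S genes minus that of the 18 ubiquitous 19S genes, with replicates as symbols and the mean and SD in black. The hop libraries lay below all gfp libraries in the 20S beta sum and in the 20S to 19S difference.

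The core genes are shorter than the cap genes. The exons of the tested ubiquitous alpha and beta genes have median lengths of 974.5 and 944 bases, while those of the base and lid genes have 1589 and 1605.5 bases. The fold changes were therefore set beside those of other genes of like length with a mean of at least 10 CPM. Between 800 and 1300 bases, the median log2 fold change in hop against gfp was -0.18 over 15 ubiquitous proteasome genes and 0.032 over 869 other genes. Between 1300 and 2000 bases it was 0.040 over 14 proteasome genes and 0.043 over 1477 other genes. The shorter bin was not made of core genes only, as it also held the lid genes *Rpn11* and *Rpn12*, with 1208 and 995 bases. The part of length in the values of the classes was not tested. In hop against Myc the medians for 800 to 1300 bases were -0.29 over the proteasome genes and -0.13 over the other genes, both below 0.

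In Myc, no proteasome gene was called against gfp (0 higher and 0 lower of 41, beside 2.35% and 0.502% of all genes). DESeq2 and limma-voom called none either. At an unadjusted p under 0.05, 3 genes were higher and 0 lower, beside 7.9% and 6.17% of all genes. These were *Prosalpha6*, *Prosbeta3* and *Rpn11*, with log2 fold changes of 0.42, 0.41 and 0.35. Over the 41 genes 27 had a positive value, with a median of 0.078, beside -0.037 over all genes. Genes of like length with a mean of at least 10 CPM also had positive medians in Myc. Between 800 and 1300 bases the median was 0.19 over 15 ubiquitous proteasome genes and 0.11 over 869 other genes. Between 1300 and 2000 bases it was 0.059 over 14 proteasome genes and 0.051 over 1477 other genes. Every Myc library was above every gfp library in 7 genes (10.8% of all genes) and below in 2 genes (10.4%). The library Myc 2 had the highest summed level of all 9 libraries in 3 of the 4 classes, 916 CPM in the lid, 551 CPM in the alpha and 329 CPM in the beta subunits. Within the Myc group it was also highest in 3 markers of sex. In Myc 1, 2 and 3, *roX1* was at 1091, 1793 and 1066 CPM. In the same order *roX2* was at 25.6, 55.7 and 20.1 CPM and *msl-2* at 34.3, 57.2 and 36.8 CPM. Their part in the values of Myc 2 was not tested. *Prosbeta3*, a beta subunit without a catalytic site, was at 23.6, 24.7 and 22.3 CPM in gfp and at 26.8, 34.4 and 32.8 CPM in Myc, with no overlap (SE 0.188, adjusted p = 0.333).

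The level per length, in CPM per kilobase of exon, was unequal among transcripts of subunits that the complex holds in fixed proportion. In gfp the 31 genes spanned a 7.05-fold range around a median of 43.9. *Prosalpha2* (chromosome 3R, 12431321 to 12432556) was highest at 145 ± 10.03, followed by *Rpn6* at 97.8 ± 14.3, *Prosalpha7* at 88.1 ± 3.25 and *Rpn11* at 80.5 ± 4.01. *Rpn13* (chromosome 2R, 13958545 to 13960404) was lowest at 20.5 ± 2.65, below *Prosbeta3* at 25.7 ± 1.33. In this order, 4 of the 30 steps to the next gene separated all libraries of both genes, those after *Prosalpha2*, *Rpn11*, *Rpn9* and *Prosbeta3*, and the other neighbors overlapped.

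The classes were intermixed in this order. The median level per kilobase in gfp was 62.5 for the alpha, 38.9 for the beta, 41.2 for the base and 52.7 for the lid genes. Among the catalytic subunits *Prosbeta1* was at 72.0 ± 4.91, *Prosbeta2* at 38.9 ± 2.68 and *Prosbeta5* at 30.4 ± 4.33. In hop *Prosbeta5* was at 16.8 ± 2.05 and *Prosbeta4* at 18.1 ± 3.09, below *Rpn13* at 19.8 ± 3.78, which was lowest in gfp and, at 20.8 ± 3.04, also in Myc. Across the 31 genes the mean levels per kilobase of hop and Myc had Spearman correlations of 0.935 and 0.949 with those of gfp, as a description of points that share libraries and gene lengths.

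**Figure D4:**
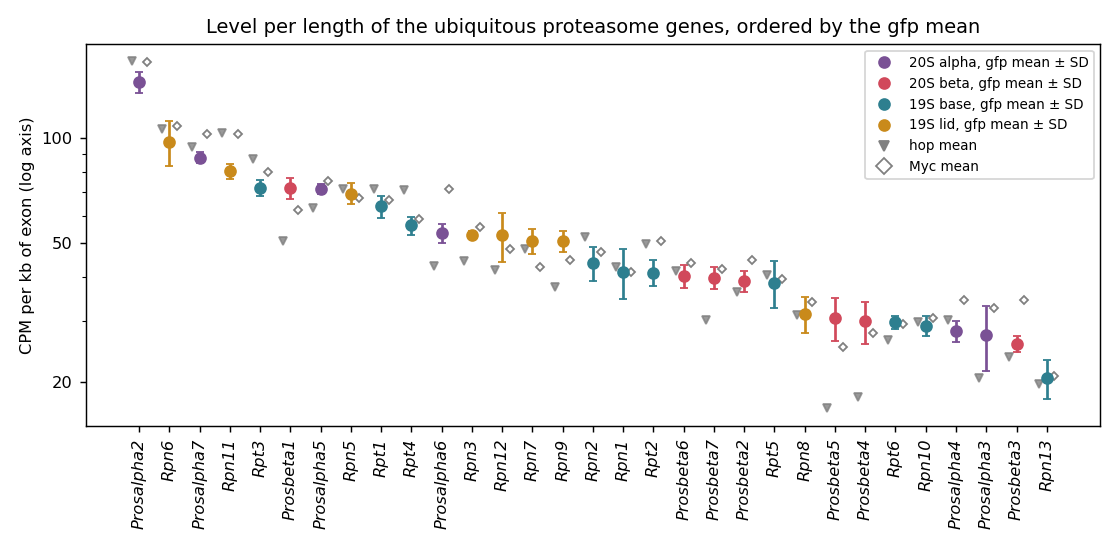
Mean level per kilobase of exon of the 31 ubiquitous proteasome genes in gfp (colored points with SD, log axis), in descending order, with the means of hop (triangles) and Myc (open diamonds). *Prosalpha2* was highest at 145 CPM per kb and *Rpn13* lowest at 20.5 CPM per kb in gfp, and *Prosbeta5* and *Prosbeta4* lay lowest in hop.

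The paralogs were at low levels throughout. Their sum was 35.8, 34.1 and 27.0 CPM in gfp, 44.8, 29.5 and 23.6 CPM in hop, and 30.6, 26.8 and 40.1 CPM in Myc, ranges that overlapped. Of the 15 paralogs 10 were tested and none was called in any comparison. *Rpt3R*, the paralog of the ATPase *Rpt3*, had 20 to 44 counts in every library, and *Prosbeta2R2* had 14 to 38.

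Counts of several paralogs were uneven between libraries of a group. *Prosbeta5R1* (chromosome 2R, 23308654 to 23309816), a paralog of *Prosbeta5*, had 7, 6 and 1 counts in gfp, 39, 16 and 9 in hop, and 27, 2 and 7 in Myc. Every hop library was above every gfp library, and the log2 fold change was 2.24 (SE 0.871, 95% interval 0.38 to 4.10, adjusted p = 0.127). It passed the test without Myc 1 (2.28, adjusted p = 0.0321). The other paralog of this subunit, *Prosbeta5R2*, had 20, 69 and 19 counts in gfp, 14, 17 and 8 in hop, and 12, 12 and 42 in Myc, so that gfp 2 and Myc 3 held most of its counts. Its log2 fold change in hop was -1.38 (SE 0.596, adjusted p = 0.165).

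Of the 5 paralogs that were not tested, *Prosbeta4R1* had 12 of its 13 hop counts in hop 1 and 5 of its 6 Myc counts in Myc 1. *Prosbeta4R2* had 2 counts in gfp, 18 in hop and 4 in Myc. *Prosalpha3T*, *Rpn12R* and *Prosbeta2R1* had at most 17 counts in a library. The 6 markers of the male germline summed to 26.3 to 31.5 CPM in gfp, 25.6 to 29.9 CPM in hop and 18.6 to 21.4 CPM in Myc. Each was detected in at least 1 library. Of these 4 were tested and none was called, while *aly* and *can* did not pass the filter. In hop *bam* and *Mst87F* had log2 fold changes of 0.70 and 0.021, and *topi* and *dj* had -0.20 and -1.1. The part of the male germline in the counts of the paralogs was not tested.

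**Figure D5:**
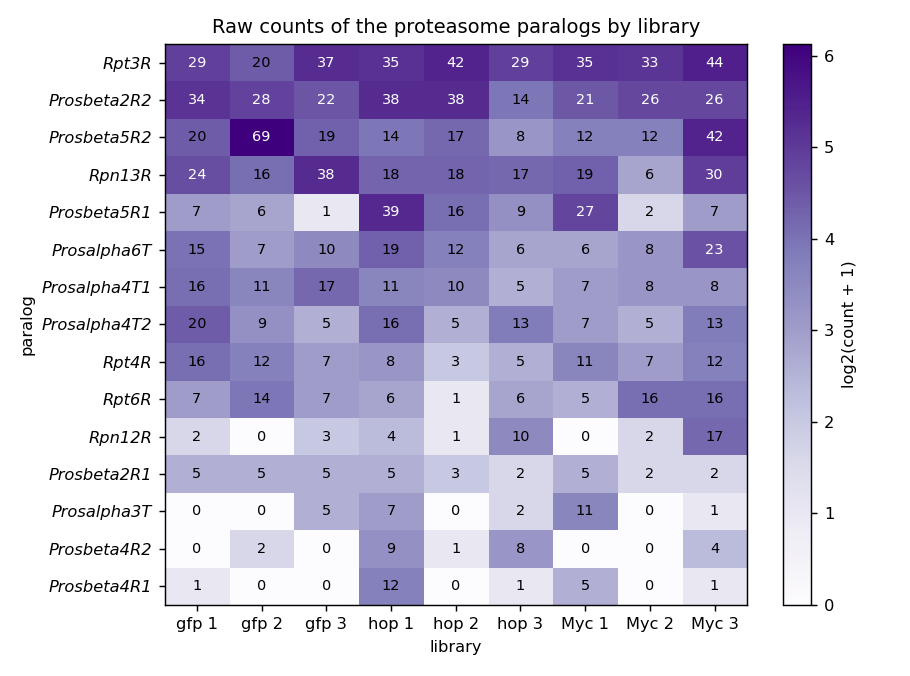
Raw counts of the 15 proteasome paralogs in each of the 9 libraries, ordered by their total, with color on a log2 scale. *Prosbeta5R2* reached 69 counts in gfp 2 and *Prosbeta5R1* reached 39 in hop 1, while most entries of the lower rows were under 10.

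The genes that assemble, activate or inhibit the proteasome were described next. Of 8 such genes, none was called in hop and 1 was called higher in Myc, beside 3.16% and 2.35% of all genes called higher. The gene was *REG*, which encodes the 11S activator that opens the core without ATP or ubiquitin. It was at 126, 140 and 124 CPM in gfp, 142, 171 and 169 CPM in hop, and 202, 250 and 211 CPM in Myc, so that the groups lay in separate ranges. The log2 fold change was 0.77 in Myc (SE 0.123, adjusted p = 0.0029) and 0.31 in hop (SE 0.123, adjusted p = 0.132). Hop was lower than Myc by the test of that difference (log2 fold change -0.46, SE 0.122, adjusted p = 0.036).

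The Myc call for *REG* held with each library left out. The call of hop against Myc did not hold without gfp 1, gfp 2, gfp 3, hop 1, hop 2, hop 3, Myc 2 or Myc 3, where the adjusted p was 0.0515, 0.0596, 0.0657, 0.133, 0.0646, 0.0679, 0.182 and 0.0879. These fits called 136 to 364 of all genes higher and 123 to 352 lower, against 427 and 407 with all libraries. The chaperone *Pomp*, which assembles the core and matures its beta subunits, was at 54.4 ± 6.59 CPM in gfp, 50.2 ± 10.5 CPM in hop and 54.4 ± 8.54 CPM in Myc. The inhibitor *PI31* and the deubiquitinases of the cap, *Uch-L5* and *CG5384* (the homolog of Usp14), had log2 fold changes of 0.20 (SE 0.188), 0.36 (SE 0.145, adjusted p = 0.133) and -0.14 (SE 0.164) in hop.

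Of 8 genes for ubiquitin and its shuttle factors, 1 was called higher in hop and 1 in Myc, beside 3.16% and 2.35% of all genes. *Ubi-p5E*, a polyubiquitin gene, was at 37.1, 37.2 and 35.2 CPM in gfp, 78.6, 61.6 and 63.8 CPM in hop, and 42.0, 40.7 and 47.4 CPM in Myc. The hop libraries were above all others. Its log2 fold change was 0.90 in hop (SE 0.156, adjusted p = 0.00457) and 0.25 in Myc (SE 0.157, adjusted p = 0.539), and hop was above Myc by 0.65 (SE 0.155, adjusted p = 0.022). The call against gfp held with each library left out, and that against Myc did not hold without hop 1 (adjusted p = 0.0887), Myc 2 (0.0842) or Myc 3 (0.0553). In hop against Myc, the latter fits called 136 to 186 of all genes higher and 123 to 155 lower, against 427 and 407 with all libraries.

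*RpS27A*, which encodes a ribosomal protein fused to ubiquitin, was called higher in Myc, with 695, 691 and 772 CPM in gfp and 1090, 1130 and 1004 CPM in Myc (log2 fold change 0.58, SE 0.114, adjusted p = 0.01). The adjusted p was 0.0723 without gfp 1 and 0.0893 without gfp 2. In Myc against gfp, those fits called 120 and 113 of all genes higher, against 300 with all libraries. *Ubi-p63E*, the other polyubiquitin gene, had 0.40 in hop (SE 0.193, adjusted p = 0.219). Repeats within polyubiquitin genes are alike in sequence, and how the counting treated reads that fit both genes is not given in the sources used here.

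*TER94*, the p97 ATPase that extracts ubiquitinated proteins and hands them to the proteasome, was the 1 gene called of 4 of its complex in hop. It was at 247, 256 and 268 CPM in gfp and at 334, 384 and 332 CPM in hop, without overlap (log2 fold change 0.45, SE 0.116, adjusted p = 0.0319). The call did not hold without gfp 1, gfp 2, gfp 3, hop 2 or hop 3 (adjusted p 0.0899, 0.13, 0.0953, 0.0764 and 0.061). These fits called 73 to 405 of all genes higher and 67 to 274 lower, against 402 and 429 with all libraries. The other genes of the complex, *Npl4*, *p47* and *Ufd1-like*, had log2 fold changes of 0.24 (SE 0.153), 0.11 (SE 0.190) and -0.23 (SE 0.277) in hop. Every hop library lay above every gfp library in *Npl4* and below in *Ufd1-like*. The share of all genes called higher in hop was 3.16%.

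CncC, the Nrf transcription factor encoded by *cnc*, controls proteasome genes under proteotoxic stress in flies and mammals, and Keap1 is its inhibitor. *Keap1* was at 119, 114.5 and 117 CPM in gfp and 78.1, 89.9 and 59.8 CPM in hop, with no overlap. It was called lower in hop (log2 fold change -0.62, SE 0.144, adjusted p = 0.0195), but not without gfp 1, gfp 2, gfp 3 or hop 3 (adjusted p 0.0552, 0.0776, 0.0925 and 0.103). These fits called 73 to 240 of all genes higher and 67 to 274 lower, against 402 and 429 with all libraries. *cnc* was at 114, 102 and 98.8 CPM in gfp and 129, 130 and 146 CPM in hop (0.36, SE 0.125, adjusted p = 0.0867). Neither was called in Myc, where *Keap1* had -0.36 (SE 0.143, adjusted p = 0.257), with every Myc library below every gfp library. In Myc *cnc* had 0.12 (SE 0.125). The other listed regulators, *Pngl*, *rngo* and *maf-S*, had 0.48, 0.25 and -0.23 in hop. In Myc they had 0.27, 0.43 and -0.45, and they were not called in either. Of the 5 regulators, 1 was called lower in hop, beside 3.37% of all genes.

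Other complexes were set beside the proteasome. Of the 8 tested genes of the COP9 signalosome, which is related to the lid in structure, none was called in hop or Myc, with medians of -0.032 and 0.014. At an unadjusted p under 0.05, 1 was higher and 1 lower in hop, beside 11.6% and 13% of all genes. None was higher or lower in Myc, beside 7.9% and 6.17% of all genes. Of the 8 genes of the CCT chaperonin, which folds actin and tubulin, 3 were called higher in Myc (*CG7033*, *Tcp-1zeta* and *CG8258*) and none in hop. All 8 had positive values in both, with medians of 0.46 in Myc and 0.32 in hop, and 8 and 6 had an unadjusted p under 0.05. Over all genes 2.35% were called higher in Myc and 3.16% in hop. At the unadjusted p, 7.9% of all genes were higher in Myc and 11.6% in hop. Each of the 3 calls was lost without gfp 1 (adjusted p 0.154, 0.129 and 0.12) and without gfp 2 (0.173, 0.202 and 0.12). In Myc against gfp, those fits called 120 and 113 of all genes higher, against 300 with all libraries. The medians over the 41 proteasome genes were 0.078 in Myc and -0.0037 in hop.

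Markers of other cells that the sort could hold differed between some groups. The 3 hemocyte markers summed to 53.7 to 56.9 CPM in gfp, 64.0 to 77.7 CPM in hop and 47.4 to 60.3 CPM in Myc. Of these *Hml* was called higher in hop (13.0 ± 2.55 CPM in gfp and 30.2 ± 2.27 CPM in hop, adjusted p = 0.00981). The markers *NimC1* and *srp*, not called, had log2 fold changes of 0.61 and -0.13 in hop. The 3 markers of adult muscle precursors summed to 36.9 to 57.7 CPM in gfp, 18.8 to 33.0 CPM in hop and 24.1 to 34.3 CPM in Myc. Of these *zfh1* was called lower in hop (adjusted p = 0.0241), while *twi* and *Him*, not called, had -1.03 and 0.64. The 3 posterior markers summed to 122 to 133 CPM in gfp, 94.6 to 112.5 CPM in hop and 72.0 to 82.7 CPM in Myc, so that the groups did not overlap. Of these *inv* was called lower in Myc (adjusted p = 0.00704), and its log2 fold change in hop was -0.49 (adjusted p = 0.07). The markers *en* and *hh*, not called, had -0.027 and 0.17 in hop, where both overlapped gfp. In Myc they had -0.59 and -0.34. The 3 female germline markers, none of them called, summed to 13.9 to 17.0 CPM in gfp, 8.65 to 12.5 CPM in hop and 10.01 to 17.1 CPM in Myc. The 2 tracheal markers, also not called, summed to 95.5 to 111 CPM in gfp, 82.9 to 119 CPM in hop and 80.5 to 112 CPM in Myc. The 3 markers of sex, none of them called, summed to 1297 to 1416 CPM in gfp, 1535 to 1728 CPM in hop and 1123 to 1906 CPM in Myc. No marker of these lists was absent from all libraries. Their part in the values of the proteasome genes was not tested.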

How the data were processed

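Per the labels, the authors' processing used bcl2fastq, STAR, Picard, HTSeq and DESeq2 with dm6 (BDGP6). The strand setting and tool versions were not stated in these sources. The labels name polyadenylated RNA, whereas the methods describe libraries made from total RNA, and this was not resolved. The authors deposited raw counts, whole numbers per gene symbol, which were used for all results. The second deposited table holds signal values, counts divided by a size factor per library. Multiplied back, 100% of these values were whole within 0.02, and 31 of 47 proteasome genes had identical reads in both tables. The test on these recovered reads called 428 genes higher and 413 lower in hop against gfp.

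Genes were kept by filterByExpr (12741 genes) and the quasi-likelihood test was run with edgeR 4.0.16 (robust estimation, TMM normalization, all 9 libraries in 1 fit, 6 residual degrees of freedom, R 4.3.3), with Benjamini-Hochberg adjustment over all genes tested. Each supercompetitor was contrasted with gfp, so that both contrasts share the gfp libraries, and hop was contrasted with Myc. A gene was called at an adjusted p under 0.05. The scripts were tested on simulated data. CPM used TMM library sizes. Exon lengths, positions and shared exon bases came from the BDGP6 annotation. Figures were drawn with matplotlib 3.10.9.

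Values by library were given for every called member, the catalytic subunits, the members highest and lowest in the control, and paralogs. Genes outside the members were named where called in one of the lists. *Prosbeta4*, *Prosbeta3*, *Prosbeta6*, *Prosalpha2*, *Rpn3*, *Rpn9*, *Rpn11*, *Rpt1*, *Rpt3*, *Rpt4*, *Rpt6* and genes of the lists that were not called were chosen after their values were seen. The members and lists were chosen with earlier results of these data known. Alternatives were RLE and upper quartile normalization, TMM without rRNA and mitochondrial genes, other filters, DESeq2 1.42.0, limma-voom (limma 3.58.1), a replicate block, a fit of only the 6 libraries of a contrast, the recovered reads, a fold change of at least 1.5 as well, and each library left out. A fit without robust estimation was added after seeing the data. Intervals cover the spread between libraries, and the limit for 0 counts (3 counts) covers counting error only.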

Additional observations from a re-analysis of the deposited data

Results flagged for a closer look

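3 genes differed between the supercompetitors by the test of hop against Myc itself. *Prosalpha6* was lower in hop (-0.72 on the log2 scale, adjusted p = 0.0218). Its values lay below gfp in the mean of hop and above gfp in that of Myc. *REG* was lower in hop than in Myc (-0.46 on the log2 scale, adjusted p = 0.036). *Ubi-p5E* was higher in hop than in Myc (0.65, adjusted p = 0.022). None of the 3 calls held in a fit of these 6 libraries alone (adjusted p 0.0646, 0.095 and 0.0622). That fit called 167 of all genes higher and 144 lower, against 427 and 407 with all 9 libraries.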

How the results depend on the processing

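The number of proteasome genes called in hop against gfp was 1, and it was 2 with upper quartile normalization, with at least 10 counts in every library and with DESeq2 (*Prosbeta5* and *Rpn9* in each), and 3 with the 6 libraries alone. With single libraries left out it ranged from 0 to 4, and it was 2 without gfp 1 and Myc 1 together. In hop against Myc the number was 1, and it was 0 with the 6 libraries alone, 0 to 5 with single libraries left out and 4 without gfp 1 and Myc 1 together. In Myc against gfp it was 0 under all 22 alternatives. Over all genes, the hop against gfp calls were 402 higher and 429 lower, and 904 and 772 with the 6 libraries alone. They were 721 and 642 with DESeq2, 1093 and 855 without Myc 1, and 1054 and 822 without gfp 1 and Myc 1 together. Without gfp 2, gfp 3 or one hop library, where no member was called, they were 73 to 405 higher and 67 to 288 lower. In hop against Myc they were 427 and 407, 167 and 144 with the 6 libraries alone, and 1383 and 1107 without gfp 1 and Myc 1 together.

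The labels number the libraries of each group from 1 to 3. The deviations of 9 same-numbered pairs correlated between -0.14 and 0.40 and those of 18 other pairs between -0.35 and 0.22. The best match in another group had the same number in 12 of 18 cases, so not every library correlated best with its own number, and the numbers were not taken as a pairing. With the replicate number as a block, 5 genes were called in hop against gfp (*Prosbeta5*, *Prosbeta1*, *Prosbeta4* and *Rpn9* lower, *Prosbeta5R1* higher), 0 in Myc against gfp and 3 in hop against Myc (*Prosalpha6*, *Prosalpha3* and *Prosbeta7*, all lower). Over all genes the block called 914 higher and 778 lower in hop against gfp, and 965 and 796 in hop against Myc (427 and 407 without it).

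The log2 fold change of *Prosbeta5* in hop ranged from -0.97 to -0.73 over 21 alternatives (adjusted p 0.00969 to 0.142), of which 5 did not pass. That of *Prosalpha6* in hop against Myc ranged from -0.84 to -0.53 (adjusted p 0.00459 to 0.125), of which 4 did not pass. With single libraries left out, *Prosbeta2* in hop ranged from -0.23 to 0.0205, and the positive value was that without hop 1. The median of the members in hop against gfp was -0.0037 with TMM, 0.028 with RLE and -0.073 with upper quartile normalization, and that of all genes was -0.016, 0.015 and -0.084. For each, the cause was not tested. A search for promoter motifs and a comparison of proteins were not run, because no sequences were used here.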
